A study of Homo sapiens with 4 samples.

Results

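Mitochondrial ribosomal protein genes are nuclear genes, named MRPL or MRPS, whose products build the ribosome inside mitochondria. They were taken here as all genes whose symbol in the platform annotation starts with MRPL or MRPS followed by a digit, leaving out symbols that end in P plus digits, which mark pseudogenes. The rule found 78 symbols, read by 112 probes, among 20045 named genes on the array. Of these symbols 76 are genes of mitochondrial ribosomal proteins, 50 of the large subunit and 26 of the small one. The other 2, MRPL20-AS1 and MRPL23-AS1, are antisense RNAs that share the name of a neighbouring gene.

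The mitochondrial ribosome translates the few messages encoded by mitochondrial DNA, all of them for core subunits of the respiratory chain and the ATP synthase. Its ribosomal RNAs come from mitochondrial DNA, while every protein is made in the cytosol from nuclear genes and imported. Part of the proteins have a bacterial counterpart and the rest are classed as specific to mitochondria. The latter class holds MRPS18A and MRPS18B, which are related to a bacterial protein but do not take its place in the ribosome. Ribosomal proteins that find no place in an assembled subunit are generally degraded.

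Total RNA of U87 cells, an established line from a human glioblastoma, was hybridised to Illumina bead arrays. Cells of 1 group had received a piR-598 mimic, a synthetic version of that PIWI-interacting RNA. Cells of the other had received the NC oligo, which is a negative control made for microRNA inhibitors and not for mimics. All cells were transfected with RNAiMax at 25 nM oligo and sampled after 24 h, and no untransfected cells were analysed here. Each group had 2 arrays, from samples described as biological duplicates. Whether these were separate cultures is not given in the sources used here. The p-values then cover no more than the spread between these samples, which may be technical.

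The mean deposited signal was 305.8 and 300.0 on the NC oligo arrays and 273.0 and 284.8 on the mimic arrays. Both mimic arrays were thus lower in raw signal, a difference that normalization takes out and whose cause was not tested. Between 19627 and 20324 of the 47318 probes on an array passed a detection p under 0.05. Of the mesenchymal glioblastoma markers looked up, all 6 with a named probe, among them VIM, CD44 and TNC, were detected on all 4 arrays. FN1, also of that list, was dim, with a mean normalized log2 signal of 5.70. The astrocyte markers GFAP, AQP4 and SLC1A2 were detected on 0 arrays, as were the leukocyte marker PTPRC, the endothelial marker CDH5 and the haemoglobin gene HBB. PECAM1, also listed for endothelium, was detected on 1 array. SNAP25, OLIG2, AIF1, CD14 and CSF1R, listed for neurons, oligodendrocyte lineage and leukocytes, were detected on all 4. Of these, OLIG2, AIF1 and CD14 were dim, at 5.42, 5.26 and 5.19 (mean normalized log2 signal). The other neuron markers went the other way, with RBFOX3 and SYT1 detected on 0 arrays and STMN2 on 1. MBP, of the oligodendrocyte lineage, was detected on 0 arrays as well. With 2 arrays in each group, precision is limited throughout.

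The promoters of the members were searched for 3 short sequences that transcription factors bind. RefSeq promoter sequences (GRCh38.p14, from 250 bases before to 50 bases after each transcription start) were found for 68 of the 76 protein genes, with 84 starts. The motifs searched were CCGGAAG, the core bound by ETS factors such as GABPA, the palindrome of GCGCA joined to TGCGC, a strict form of the NRF1 site, and AAGATGGCG, the core of a YY1 site. Both strands were searched, and none of the 3 motifs contains another. GABPA, NRF1 and YY1 are known regulators of nuclear genes for mitochondrial proteins.

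The ETS core stood in 32 of 84 member promoters (38.1%), and in 12.8% of the 22199 promoters of protein-coding genes in the same table. The YY1 core stood in 13 of 84 (15.5%), and in 2.41% of those protein-coding promoters. The NRF1 form stood in 1 of 84 (1.19%), and in 1.5% of them. A match of letters does not show that a factor binds there, and these shares were not tested against each other. Members with the YY1 core include 5 genes named below, and the sites of these are shown. MRPL42, MRPL50 and MRPS18B are named for a small p with lower signal on the mimic arrays, MRPS18A and MRPS30 for their role. All of them had a log2 fold change (piR-598 mimic minus NC oligo) below 0. Of the 13 genes with the core, 5 were positive and 8 negative. Each site shown lies on the strand of the gene, close to a start. Each line gives the motif in capitals with the 10 bases to either side, on the strand of the gene. The motif began between 9 and 24 bases after the listed start.
MRPL42, chr12:93467512-93467540, plus strand: ggattgaaacAAGATGGCGggttcgtggt
MRPL50, chr9:101398577-101398605, minus strand: gatctcatcgAAGATGGCGgcgcgatctg
MRPS18A, chr6:43687764-43687792, minus strand: taggtttttgAAGATGGCGgccctcaagg
MRPS18B, chr6:30617853-30617881, plus strand: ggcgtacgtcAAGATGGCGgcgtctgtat
MRPS30, chr5:44808950-44808978, plus strand: atcgcgggcaAAGATGGCGgcggccaggt

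For the ETS core, the 100 bases before a start of MRPS22, a small-subunit protein, and of MRPS18A are shown, with the core on either strand in capitals. MRPS22 holds the core facing both ways with 1 base between the copies.
MRPS22, chr3:139343894-139343993, plus strand: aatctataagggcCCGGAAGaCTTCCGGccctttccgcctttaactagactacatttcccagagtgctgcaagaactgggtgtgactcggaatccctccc
MRPS18A, chr6:43687792-43687891, minus strand: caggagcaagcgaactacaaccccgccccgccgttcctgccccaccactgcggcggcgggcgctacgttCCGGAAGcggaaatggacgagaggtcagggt

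Another feature of position was shared by part of the members. In 19 of 68 member genes (27.9%) another protein-coding gene started head to head within 1000 bases upstream, against 12.3% of protein-coding genes in the table. The pairs include MRPL46 with MRPS11, both of the mitochondrial ribosome, and MRPL49 with FAU, a precursor of a cytosolic ribosomal protein. They also include MRPS12 with SARS2, the mitochondrial seryl-tRNA synthetase, and MRPS27 with PTCD2, a mitochondrial RNA-binding protein.

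Nearly all of these genes were expressed in U87 cells. A probe was tested when its detection p was under 0.05 on at least 2 of the 4 arrays, which held for 106 of the 112 member probes (94.6%) and for 42.7% of all probes. All 76 protein genes had at least 1 tested probe, and 103 member probes (92.0%) were detected on all 4 arrays, against 35.2% of all probes. The 6 probes left out were further probes of MRPL39, MRPL4, MRPL44, MRPL55 and MRPS18C, each with another tested probe, and the 1 probe of MRPL23-AS1. That antisense RNA was detected on 0 arrays, with a detection p of at least 0.231.

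The comparison asks whether transcripts of the mitochondrial ribosome differed between cells given the piR-598 mimic and cells given the NC oligo. None of the members passed the test. Of 106 member probes, 0 were called by limma at a Benjamini-Hochberg adjusted p under 0.05 over all 20188 tested probes, and the background share was 0% as well, with 0 of all tested probes called. At an unadjusted p under 0.05 there were 2 member probes, 1 for MRPS14 and 1 for MRPL47, where the background share was 5.46% of all tested probes. Counted by gene it was 1 of 77, MRPS14, where the background share was 4.84% of all tested genes. The smallest adjusted p of a member from limma was 0.895. In bulk RNA, fewer cells of a kind and less RNA per cell cannot be told apart.

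The spread of the members was narrow around 0 after quantile normalization, which takes out a shift shared by most genes. With 1 probe standing for each gene (the tested probe of highest mean signal), the 77 measured members had a median log2 fold change of -0.01, piR-598 mimic minus NC oligo, with 36 positive and 41 negative. The quartiles were -0.08 and 0.07. Over all 11704 tested genes the median was -0.01 and the quartiles were -0.12 and 0.10. With median scaling instead, the medians were -0.09 for the members and -0.07 for all tested genes. The median residual SD between arrays of a group was 0.11 for the members and 0.14 for all tested genes on the log2 scale. Members range from -0.55 for MRPS14 to 0.38 for MRPL30.

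The intervals of this fit bound, for 1 probe at a time, the change between these samples that could have been missed. They do not cover a shift shared by most genes, which normalization takes out. The 95% interval of the fold change did not reach a 2-fold change up or down for 77 of 77 member genes, and stayed within 1.5-fold for 67 of them (87%). The corresponding shares of all tested genes were 99.4% and 76.1%. These counts rest on 1 probe a gene. Counted by probe, the interval stayed within 2-fold for 105 of 106 member probes and for 99.4% of all tested probes. The exception was the dimmer probe of MRPL30, whose interval reached 1.02 on the log2 scale. The 10 members whose interval reached beyond 1.5-fold were MRPL1, MRPL13, MRPL30, MRPL42, MRPL47, MRPL48, MRPL50, MRPS5, MRPS14 and MRPS31. These 10 are named after their values were seen. When NC oligo replicate 1 was left out the count of 67 became 35, and 42 when replicate 2 of that group was left out. The count within 2-fold was not repeated with an array left out. The log2 fold change of MRPS14 then ranged from -0.78 to -0.30. The fold changes of dim probes also varied with the background correction, which these intervals do not cover.

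**Figure D1:**
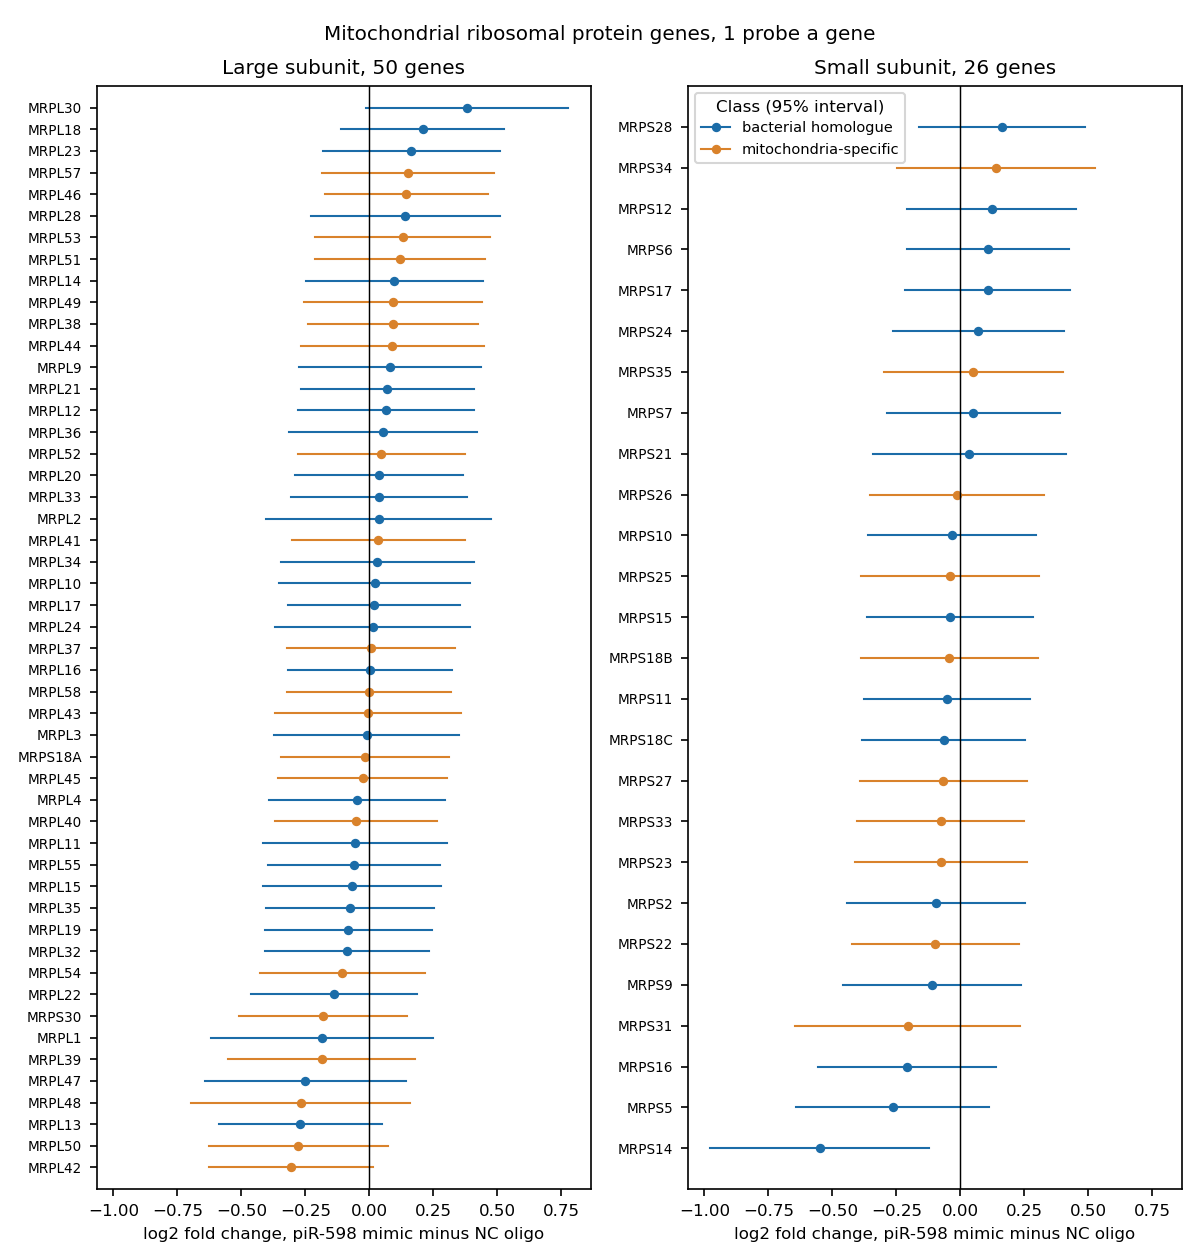
Log2 fold change (piR-598 mimic minus NC oligo, horizontal axis) of each of the 50 large-subunit and 26 small-subunit genes, 1 probe a gene, as a point with its 95% interval, coloured by whether the protein has a bacterial homologue. Points lie on both sides of 0 in both panels, and MRPS14 at -0.55 is the 1 gene whose interval does not include 0.

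After quantile normalization the members stood near their own means on every array. That step gives every array the same distribution of signals, so a shift shared by most genes would not show here. Set against each gene's own mean over the 4 arrays, the median member stood at 0.02 on NC oligo array 1, -0.01 on NC oligo array 2, 0.02 on piR-598 mimic array 1 and -0.04 on piR-598 mimic array 2 (log2). Of 76 protein genes, 45, 35, 43 and 28 lay above their own mean on these arrays in the same order. Mimic array 2 was the lowest array by both measures. The SD of the log2 difference over the members was 0.18 for the pair of NC oligo arrays and 0.19 for the pair of mimic arrays. Across the groups it ran from 0.17 to 0.22, so pairs within a group were not closer than pairs across groups.

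**Figure D2:**
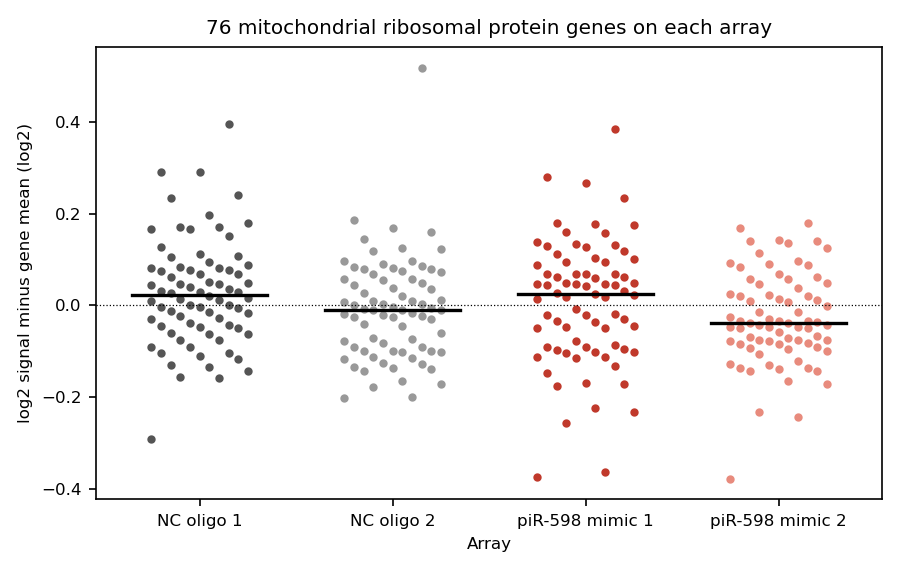
Normalized log2 signal of each of the 76 mitochondrial ribosomal protein genes minus its own mean over the 4 arrays (vertical axis, log2), with 1 point per gene and a bar at the median of each array. The medians are 0.02, -0.01, 0.02 and -0.04 from left to right, and the clouds overlap widely.

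The large subunit carries the peptidyl transferase centre, where peptide bonds form. Its 50 genes had a median log2 fold change of 0.01, with 27 positive, 23 negative and 0 called. The 29 with a bacterial homologue had a median of 0.02 and ran from -0.27 for MRPL13 to 0.38 for MRPL30. The 21 classed as specific to mitochondria, MRPS18A among them, had a median of -0.002 and ran from -0.31 for MRPL42 to 0.15.

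MRPL30, the counterpart of bacterial L30, had the highest log2 fold change of the 77 measured members, with 1 probe a gene. That probe read 6.79 and 6.99 on the NC oligo arrays and 7.47 and 7.08 on the mimic arrays (normalized log2 signal). The mimic arrays were both higher, mostly through array 1. The log2 fold change was 0.38 ± 0.17 (SE), with a 95% interval from -0.01 to 0.78 (limma adjusted p = 0.895). It was 0.19 without piR-598 mimic replicate 1. A dimmer probe of the gene had 0.45, and there mimic array 2, at 5.48, stood above the other 3 arrays, which lay between 4.52 and 4.69. The probes of MRPL30 were thus pulled up by different arrays.

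MRPL18, the counterpart of bacterial L18, showed little spread within groups. Its probe read 10.51 and 10.57 on the NC oligo arrays and 10.74 and 10.76 on the mimic arrays. The groups did not overlap, and a second probe was separated the same way. The log2 fold changes of the probes were 0.21 ± 0.14 and 0.16 ± 0.14 (SE), and neither passed the test (limma adjusted p = 0.935 and 0.953).

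MRPL47, the counterpart of bacterial L29, gave opposite answers on its 2 probes. The dim probe ILMN_1687036 read 5.04 and 4.65 on the NC oligo arrays and 5.26 and 5.38 on the mimic arrays. Its log2 fold change was 0.47 ± 0.17 (SE), the highest of any member probe (limma unadjusted p = 0.0227, adjusted p = 0.895). Leaving out background correction gave 0.14, an offset of 50 gave 0.23, and the authors' scaled signals gave 0.18. Without NC oligo replicate 2 it was 0.27. The brighter probe read 7.47, 7.14, 6.92 and 7.19 in the same order of arrays, with overlapping groups. Its log2 fold change was -0.25 ± 0.17 (SE).

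MRPL35, the counterpart of bacterial L35, also depended on the probe. The probe named for its small p read 8.12 and 8.14 on the NC oligo arrays and 8.31 and 8.38 on the mimic arrays, a log2 fold change of 0.21 ± 0.14 (SE). Of its other probes 1 had 0.14, on the same side, and the brightest had -0.08. Both had overlapping groups.

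On the lower side, MRPL42, a mitochondria-specific protein, was measured alike by both of its probes. The brighter one read 7.34 and 7.29 on the NC oligo arrays and 6.99 and 7.03 on the mimic arrays. Both mimic arrays lay below both NC oligo arrays on each probe. The log2 fold changes were -0.31 ± 0.14 and -0.29 ± 0.17 (SE), with limma adjusted p of 0.895 and 0.913. For the brighter probe the value stayed between -0.33 and -0.28 when any array was left out, and it was -0.20 without background correction.

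MRPL13, the counterpart of bacterial L13, read 9.93 and 9.89 on the NC oligo arrays and 9.61 and 9.68 on the mimic arrays. Its log2 fold change was -0.27 ± 0.14 (SE), and between -0.31 and -0.23 when any array was left out. MRPL50, also mitochondria-specific, read 9.06 and 8.86 on the NC oligo arrays and 8.59 and 8.78 on the mimic arrays. The groups of MRPL50 were separated by less than the gap between the NC oligo arrays, and its log2 fold change was -0.28 ± 0.15 (SE). It was -0.18 without NC oligo replicate 1. Neither gene passed the test (limma adjusted p = 0.900 and 0.909).

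MRPL11, a protein of the base of the stalk to which translation factors bind, had 3 tested probes. The dimmest had a log2 fold change of -0.31 ± 0.16 (SE), with 6.23 and 5.94 on the NC oligo arrays and 5.75 and 5.79 on the mimic arrays. It was -0.14 without background correction and -0.17 without NC oligo replicate 1. The other probes had 0.05 and -0.06, with overlapping groups, so the 3 probes did not share a direction.

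Of the large-subunit members named for their role, MRPL12, MRPL3, MRPL44 and MRPL58 had overlapping groups on the probe of highest mean signal. MRPL12, the stalk protein that also binds the mitochondrial RNA polymerase, read 9.61 and 9.50 on the NC oligo arrays and 9.73 and 9.51 on the mimic arrays, a log2 fold change of 0.06 with a 95% interval from -0.28 to 0.41. MRPL3, which reaches towards the peptidyl transferase centre, had 11.02, 11.15, 10.93 and 11.21 in the same order and a log2 fold change of -0.01 with an interval from -0.37 to 0.35. MRPL44, a protein related to ribonuclease III, had 7.85, 7.60, 7.90 and 7.73 and a log2 fold change of 0.09. MRPL58, a peptidyl-tRNA hydrolase built into the subunit, had 8.97, 8.95, 9.002 and 8.91 and a log2 fold change of -0.002, with an interval from -0.32 to 0.32. MRPS30 sits in the large subunit despite its name, and there the groups did not overlap. It read 9.20 and 9.35 on the NC oligo arrays and 9.07 and 9.11 on the mimic arrays, with a log2 fold change of -0.18 ± 0.14 (SE, limma adjusted p = 0.942), and -0.11 without NC oligo replicate 2.

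The small subunit binds the message and holds the decoding centre. Its 26 genes had a median log2 fold change of -0.04, with 9 positive, 17 negative and 0 called. The 16 with a bacterial homologue had a median of -0.04, and the 10 classed as specific to mitochondria, MRPS18B among them, had -0.06, with 2 positive and 8 negative. Those 10 ran from -0.21 to 0.14, the value of MRPS34.

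MRPS14, the counterpart of bacterial S14, had the lowest log2 fold change of all members. Its 1 probe was dim. It read 4.87 and 5.35 on the NC oligo arrays and 4.66 and 4.46 on the mimic arrays, and it was detected on both NC oligo arrays and on 1 of 2 mimic arrays. The mimic arrays were lower, and the NC oligo arrays differed by more than the mimic arrays did. The log2 fold change was -0.55 ± 0.19 (SE), with a 95% interval from -0.98 to -0.12 (limma unadjusted p = 0.0176, adjusted p = 0.895). Without NC oligo replicate 2 it was -0.30. Leaving out background correction gave -0.16, an offset of 50 gave -0.26, and the authors' scaled signals gave -0.12.

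MRPS21 and MRPS28, counterparts of bacterial S21 and S1, were named on the higher side. One probe of MRPS21 read 6.54 and 6.53 on the NC oligo arrays and 6.86 and 6.70 on the mimic arrays, a log2 fold change of 0.25 ± 0.14 (SE) that was 0.14 without background correction. Its brighter probe had 0.03 with overlapping groups. MRPS28 read 8.14 and 8.16 on the NC oligo arrays and 8.25 and 8.37 on the mimic arrays, a log2 fold change of 0.16 ± 0.14 (SE) that was 0.10 without piR-598 mimic replicate 2. Neither gene passed the test (limma adjusted p = 0.913 and 0.955).

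The genes MRPS16, MRPS22 and MRPS34 are known from inherited defects of mitochondrial translation. MRPS16 read 9.004 and 8.75 on the NC oligo arrays and 8.64 and 8.69 on the mimic arrays, a log2 fold change of -0.21 ± 0.15 (SE) that was -0.08 without NC oligo replicate 1. MRPS22 read 10.22 and 10.28 on the NC oligo arrays and 10.09 and 10.21 on the mimic arrays, with -0.10 ± 0.14 (SE), and -0.04 without piR-598 mimic replicate 1. In both genes the mimic arrays lay just below the NC oligo arrays. MRPS34 read 6.66, 6.76, 7.05 and 6.65 in the same order, with mimic array 1 above the rest. Its log2 fold change was 0.14, and -0.06 without piR-598 mimic replicate 1.

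MRPS12, the decoding centre protein whose bacterial counterpart is the site of streptomycin resistance, had 4 tested probes. Their log2 fold changes ran from -0.12 to 0.12. The brightest read 11.12 and 11.26 on the NC oligo arrays and 11.36 and 11.26 on the mimic arrays. MRPS27, a pentatricopeptide repeat protein, had 9.84, 9.74, 9.68 and 9.77 on its brighter probe and log2 fold changes of -0.07 and -0.03 on its probes. In both genes the brightest probe differed less between the group means than between the NC oligo arrays.

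MRPS18A, MRPS18B and MRPS18C are paralogues related to the single bacterial S18 protein. MRPS18A is a protein of the large subunit, and the other genes encode proteins of the small one. MRPS18A read 8.27 and 8.25 on the NC oligo arrays and 8.32 and 8.17 on the mimic arrays, a log2 fold change of -0.02 with a 95% interval from -0.34 to 0.31. MRPS18C read 10.998 and 10.97 on the NC oligo arrays and 10.94 and 10.89 on the mimic arrays, with -0.07 and an interval from -0.38 to 0.25. MRPS18B had -0.04 on its brighter probe, where the groups overlapped. Its dimmer probe read 6.89 and 6.77 on the NC oligo arrays and 6.68 and 6.44 on the mimic arrays, a log2 fold change of -0.27 ± 0.15 (SE, limma adjusted p = 0.913). That value was -0.16 without background correction and -0.15 without piR-598 mimic replicate 2. All probes of the 3 paralogues that were tested had values below 0, but the interval of each included 0.

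**Figure D3:**
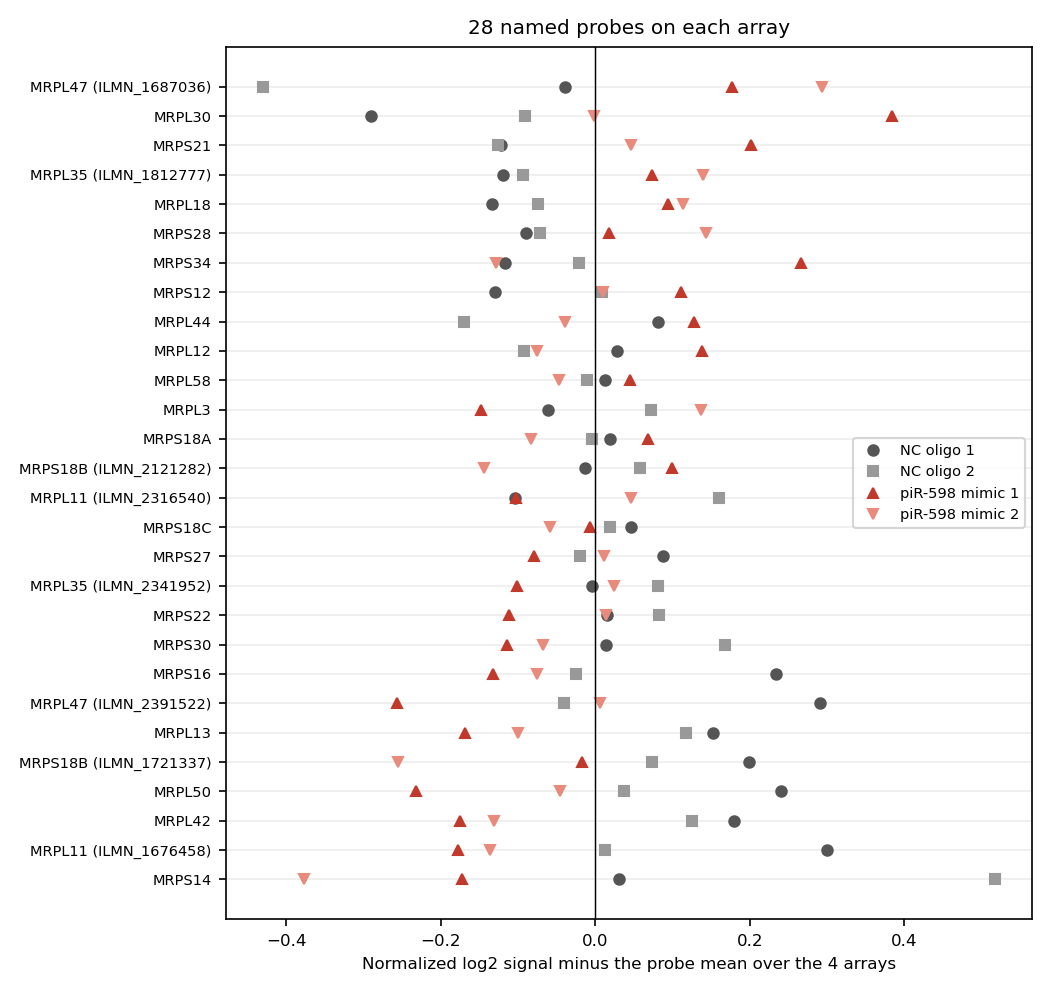
Normalized log2 signal of the 28 named probes on each array, minus the mean of the probe over the 4 arrays (horizontal axis, log2), with grey symbols for the NC oligo arrays and red symbols for the piR-598 mimic arrays. Grey and red symbols stand apart at the top and bottom of the plot, for MRPL47 (ILMN_1687036, 0.47) and MRPS14 (-0.55) among others, as the choice by small p brings about, and mix in the middle.

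The share of member probes whose groups did not overlap was near the background. All mimic arrays lay above all NC oligo arrays at 17 of 106 member probes, where the background share was 17.1% of tested probes, and below them at 20, where it was 17.6%. Together that is 34.9% of member probes, beside a background share of 34.7%.

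Several probes of a gene give a further reading of that gene. Which of its transcripts each probe matches was not checked. For 24 members at least 2 probes were tested, and in 14 of the 24 all probes lay on the same side of 0. The same share was not taken over all tested genes. The median gap between the lowest and the highest log2 fold change of a gene was 0.12. Both probes of MRPL42, of MRPL30 and of MRPL18, genes named for a small p, lay on the same side of 0. The dimmer probe of MRPL30 was detected on 3 of 4 arrays and had overlapping groups. MRPL47 had the widest gap, 0.72, followed by MRPL11 with 0.37, MRPL35 with 0.29, MRPS12 with 0.24 and MRPS18B with 0.23.

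**Figure D4:**
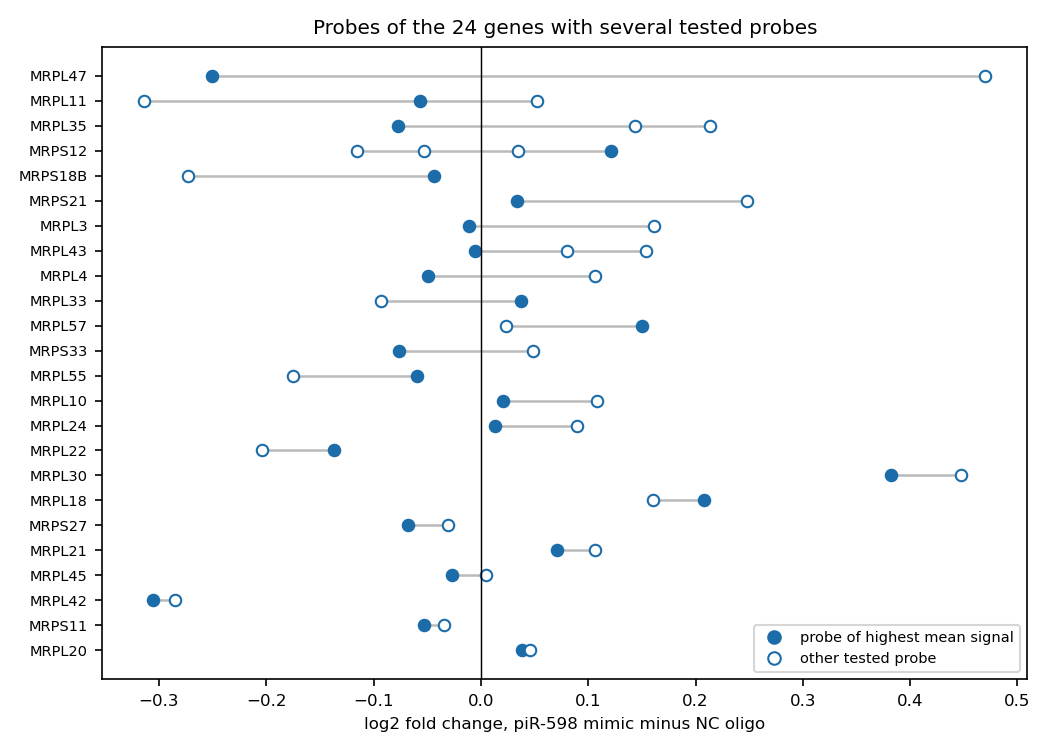
Log2 fold change (piR-598 mimic minus NC oligo, horizontal axis) of every tested probe of the 24 members with several tested probes, sorted by the gap between probes. Filled points mark the probe of highest mean signal. The gap is 0.72 for MRPL47 at the top and 0.02 for MRPL42, whose probes stand at -0.31 and -0.29.

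The antisense RNA MRPL20-AS1 was detected on all 4 arrays. It read 9.33 and 9.06 on the NC oligo arrays and 9.06 and 8.90 on the mimic arrays, a log2 fold change of -0.21 ± 0.16 (SE, limma adjusted p = 0.935). The probes of MRPL20 itself had 0.04 and 0.05.

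The members that hold a promoter motif had values on both sides of 0, as did those without one. The 29 genes with the ETS core had a median log2 fold change of -0.01, with 13 positive and 16 negative, and the 39 without it -0.04. The 13 genes with the YY1 core had -0.03, with 5 positive and 8 negative, and the 55 without it -0.01. In head-to-head pairs, member and neighbour lay on the same side of 0 in some pairs and on opposite sides in others. MRPL30, the member of highest value, had 0.38 and its neighbour MITD1 0.26, while MRPL46 had 0.14 and its neighbour MRPS11 -0.05.

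Factors that act upstream of the mitochondrial ribosome were looked up in lists. The 9 regulators of mitochondrial biogenesis had a median log2 fold change of -0.12, with 2 positive, 7 negative and 0 called. YY1, a transcription factor, read 10.48 and 10.47 on the NC oligo arrays and 10.09 and 10.03 on the mimic arrays. Its log2 fold change was -0.42 ± 0.14 (SE, limma unadjusted p = 0.0161, adjusted p = 0.895), and a dimmer probe had -0.13 with overlapping groups. PPARGC1A, a coactivator of mitochondrial biogenesis, read 4.78 and 4.77 on the NC oligo arrays and 4.41 and 4.59 on the mimic arrays. It was detected on both NC oligo arrays and on 0 of the mimic arrays, and no fold is given. Neither gene passed the test.

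The 10 genes of mitochondrial transcription and RNA stability had a median log2 fold change of -0.06, with 2 positive and 8 negative. TFAM, which packages mitochondrial DNA and starts its transcription, read 9.12 and 8.92 on the NC oligo arrays and 8.45 and 8.69 on the mimic arrays. Both mimic arrays were lower, and the log2 fold change was -0.45 ± 0.16 (SE, limma unadjusted p = 0.0198, adjusted p = 0.895). LRPPRC, which stabilises mitochondrial messages, had 0.19, and -0.11 without piR-598 mimic replicate 2.

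The 19 measured assembly factors of the mitochondrial ribosome had a median log2 fold change of -0.02, with 8 positive and 11 negative. MTERF3 read 9.33 and 9.32 on the NC oligo arrays and 8.84 and 8.85 on the mimic arrays, with little spread in either group. Its log2 fold change was -0.48 ± 0.14 (SE, limma unadjusted p = 0.00741, adjusted p = 0.895). On its other probe mimic array 1 was low at 8.19 and mimic array 2 was at 8.76, level with 8.75 and 8.69 on the NC oligo arrays, and the log2 fold change was -0.25. DDX28, an RNA helicase, had 0.21, and 0.08 without piR-598 mimic replicate 1. The 13 translation factors had a median of -0.04, with GUF1 at -0.34 and the elongation factor TSFM at 0.18. Without background correction these were -0.19 and 0.12, and GUF1 was at -0.18 without piR-598 mimic replicate 1.

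The 4 measured ribosomal proteins that do not carry an MRP symbol had a median log2 fold change of 0.13, with 3 positive and 1 negative. PTCD3 had 0.31 on a dim probe, which was 0.09 without background correction, and CHCHD1 had 0.18, which was 0.11 without piR-598 mimic replicate 1. Their limma adjusted p-values were 0.900 and 0.944, so neither was called.

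Genes of the cytosolic ribosome and of the respiratory chain were described in the same way. The 76 measured cytosolic ribosomal protein genes had a median log2 fold change of 0.00, with 40 positive, 36 negative and 0 called, and quartiles of -0.07 and 0.07. RPL21 had the highest value, 0.45, which was 0.14 without NC oligo replicate 1. RPL10L, detected on 3 arrays, had -0.25, which was -0.07 without background correction and -0.02 on the authors' scaled signals. The 72 nuclear respiratory chain genes had a median of -0.01, with 35 positive, 37 negative and 0 called, and quartiles of -0.08 and 0.07. ATP5MC2, which encodes the membrane ring subunit of ATP synthase, had 0.43 on its brighter probe and 0.34 on the other. The former was 0.25 without piR-598 mimic replicate 1. NDUFS1, an iron-sulfur subunit of complex I, had -0.35 on a dim probe, which was -0.10 without background correction and -0.06 on the authors' scaled signals. Differences between these lists and the members were not tested.

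**Figure D5:**
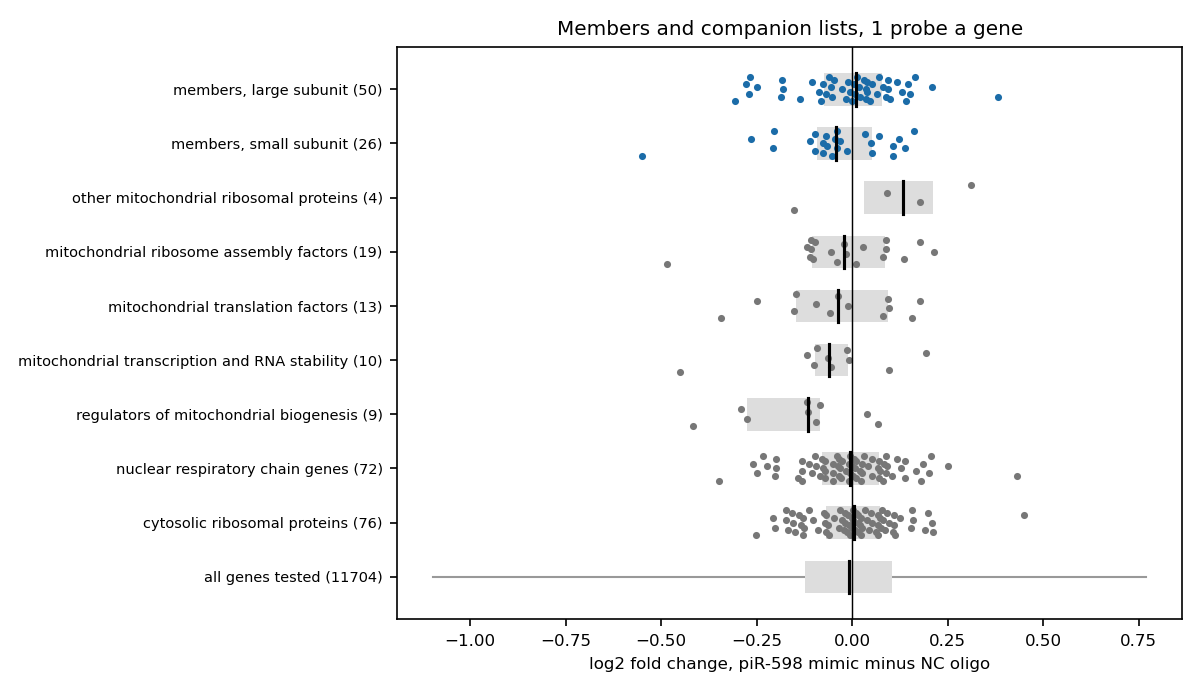
Log2 fold change (piR-598 mimic minus NC oligo, horizontal axis) of the members by subunit and of the companion lists, with 1 point per gene, a grey box between the quartiles and a black bar at the median. The line in the last row spans all 11704 tested genes, and the number of genes stands after each name. The medians of the large subunit (0.01), small subunit (-0.04), respiratory chain (-0.01) and cytosolic ribosomal protein genes (0.00) lie close to 0.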

How the data were processed

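GenomeStudio 2011.1 is named per the submitters' processing notes. The authors deposited, for each probe on each array, an average intensity and a detection p-value. These intensities are linear, with no background subtraction (lowest value 72.8). A second table deposited by the authors holds the same intensities times 1 constant per array (0.951 to 1.07), which gives every array a mean of 290.9. Its scale, direction and lack of centring were settled by this match, and it was used as an alternative. Intensities were background-corrected with normexp from the detection p-values (offset 16), quantile normalized and taken to log2 (neqc, limma 3.58.1, R 4.3.3). Probes were tested with lmFit and eBayes, two-sided, with Benjamini-Hochberg adjustment over 20188 probes. All 78 symbols of members equalled the RefSeq symbol of their gene identifier. Subunit and class of each protein came from general knowledge. Mean signal was compared between probes of a gene only to choose the probe that stands for it and to call it brighter or dimmer. Members, gene lists and tests were chosen with earlier results of these data known. Genes named are the 6 members per direction of smallest unadjusted p on any probe, 13 chosen for their role, the 5 whose probes differ most, members not detected on every array, and the 2 of smallest p in each companion list. Other genes were named after their values were seen. Messages of mitochondrial DNA were not analysed here. The steps were tested on simulated data.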

Additional observations from a re-analysis of the deposited data

How the results depend on the processing

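In all alternatives 0 member probes were called. Over all tested probes the calls ranged from 0 to 3 when 1 array was left out, and were 0 otherwise. The median log2 fold change of the members was -0.090 with median scaling, or -0.02 relative to all genes, and ranged from -0.038 to 0.032 when 1 array was left out. The number of members with an interval within 1.5-fold ranged from 35 to 65 when 1 array was left out. Member probes at an unadjusted p under 0.05 numbered 2 of 106, beside 1102 of all 20188 tested probes, so the member share was the smaller. On the authors' scaled signals they numbered 10 beside 1301, and there the member share was the larger. It was also the larger without a detection filter, with 8 of 112 member probes beside 2567 of all 47318. These shares were not tested against each other. The counts were 6 beside 1139 without background correction, where the shares were nearly equal. The counts were 4 beside 1081 at the larger offset of 50 and 6 beside 1297 with median scaling, with the member share the smaller. They ranged from 1 to 4, beside 459 to 2272, when 1 array was left out. Of 28 named member probes, 20 kept their sign and stayed uncalled in every alternative in which they were tested. These 20 include the probe of MRPS14 and the dim probe of MRPL47, which the stricter detection filter named below left out. Of the 28, 23 came over 1.5 times nearer to 0 or turned sign without some array. With median scaling MRPL12 was at -0.020 and MRPL44 at -0.021, or 0.054 and 0.052 relative to all genes. When 1 array was left out, MRPL58 ranged from -0.046 to 0.042, MRPL3 from -0.15 to 0.13, MRPL44 from -0.038 to 0.22, MRPL12 from -0.043 to 0.17, MRPS34 from -0.060 to 0.34 and MRPS18A from -0.090 to 0.061. The brightest probe of MRPL11 ranged from -0.19 to 0.076, that of MRPS18B from -0.16 to 0.077, and LRPPRC, from -0.11 to 0.50. The causes were not tested. The filter at a detection p under 0.01 on all arrays removed the named probe of MRPS14 and the dim probe of MRPL47. With the replicate number as a block there were 0 calls, a member median of -0.01 and 4 member probes at an unadjusted p under 0.05, beside 1438 of all tested probes. The samples share only a number: deviations of same-numbered arrays correlated at 0.15 over all tested probes and at -0.03 over member probes. Dim probes near the detection limit carry the least reliable fold changes.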
